A study of Mus musculus with 16 samples.

Results

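Lymphatic endothelial cells of infarcted adult mouse hearts were compared with those of sham-operated adult hearts 3 days after surgery, over every gene listed in the deposited table. The comparison rests on the 8 adult libraries of a series of 16 RNA libraries, 4 after sham surgery and 4 after myocardial infarction (MI). All mice were of the outbred CD1 strain, and per the labels the adults were males operated on at 8 weeks, which the sample names give as P56. In the MI group the left descending coronary artery was tied off permanently, and sham animals went through the procedure without an infarction. Adult hearts were perfused with Liberase DH, the atria were taken off, and cells were sorted by flow cytometry as negative for CD45 and positive for CD31 and podoplanin, after a stain that also held CD90. The other 8 libraries came from pooled ventricles of mice operated on as neonates. They entered the tests through the shared estimate of the spread and through the filter that set which genes were tested. How many hearts stand behind an adult library, and whether libraries of a group share animals, is not in the labels. The p-values therefore measure only the spread between these libraries, which may be technical.

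Lymphatic vessels of the heart drain fluid and immune cells from the muscle wall. Their endothelium is kept in its identity by the transcription factor Prox1 and grows in response to VEGF-C and VEGF-D, which act through the receptor Flt4 (VEGFR-3). After the ligation of a coronary artery the muscle downstream dies. In the following days leukocytes enter, fibroblasts divide and begin to lay down collagen, and lymphatic vessels near the injury are known to sprout.

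Depth on the listed genes ran from 17103319 to 20914864 reads in 7 of the 8 adult libraries. Mitochondrial ribosomal RNA took from 29.4% (MI 3) to 45.2% (MI 2) of it. Outside that RNA and the gene Uqcrc1 were 10019029 to 12886832 reads. Of these, mitochondrial coding genes took from 4.87% (MI 3) to 22.8% (sham 2). These are named here by the number of their table column, sham 1, 2, 3 and 5 and MI 1, 2 and 3, and they had a read on 14121 to 15753 of the 15895 genes. Within MI, pairs of these libraries correlated across genes with r of 0.920 to 0.936 on the log2 scale, and within sham with r of 0.830 to 0.953, the pairs with sham 2 being the lowest (0.830 to 0.852). Values are given in the deposited unit, reads scaled by the authors, and per library in the order sham 1, 2, 3 and 5 and then MI 1, 2 and 3.

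The library labelled MI 5 stood apart. It had a read on 7746 genes, reads on Uqcrc1, a subunit of mitochondrial complex III, made up 99.8% of it, and a single read was worth a value of 4.31. It also held transcripts that go against its label of an adult male. Xist, the RNA that silences an X chromosome in female cells, was at 271.7 there, at 0.440 to 2.03 in the other 7 adult libraries and at 436 to 922 in 6 neonatal libraries. The fetal growth genes Igf2 and H19 were at 358 and 189.8, against 21.7 to 43.7 and 1.42 to 13.3 in the 7 adult libraries and 522 to 1015 and 285 to 376 in the 6 neonatal libraries. The Y-linked genes Ddx3y, Eif2s3y, Kdm5d and Uty were read in the library labelled MI 5 too, at 8.63 to 12.9, each on 2 or 3 reads. They were at 16.2 to 59.3 in the 7 adult libraries and 5.33 to 25.4 in the 6 neonatal libraries. The comparison was defined with and without libraries that had fewer than 10000 genes above 0, irrespective of these transcripts. Results are given from 2 fits, one with all 16 libraries and one with the 13 libraries in which at least 10000 genes were above 0. The latter leaves out the library labelled MI 5 and 2 neonatal sham libraries, and gene values without another statement come from it.

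Both fits used limma on log2(value + 1), and a gene was called where its Benjamini-Hochberg adjusted p over all genes tested was below 0.05, two-sided. With all 16 libraries 23 of 13243 genes were called (0.174%), 19 higher (0.143%) and 4 lower (0.0302%) after MI. With 13 libraries 446 of 13033 were called (3.42%), 307 higher (2.36% of all genes tested) and 139 lower (1.07%), and 22 of the 23 were among them. Of the 446, 432 had no overlap between the MI and sham libraries. Over all genes tested, MI lay wholly above sham in 8% and wholly below in 5.79% with 13 libraries, and in 3.78% and 4.85% with 16. Of the called genes, 89 of the higher and 10 of the lower genes had a change beyond 2 on the log2 scale, which is a difference of log2(value + 1) and understates the change of genes with low values. The median change of all genes was 0.0078 with 13 libraries and -0.17 with 16. Without MI 3 the 446 calls became 143, of which 138 were among the 446. Without sham 2 they became 645.

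The genes of the sort and of the lymphatic lineage were read in every adult library. Prox1 was at 329.6, 298, 241 and 169 in sham and 262, 139 and 167 in MI, and Lyve1, a hyaluronan receptor of lymphatic endothelium, was at 612, 431, 485 and 311 in sham and 652, 437 and 179.6 in MI. Flt4 was at 752, 259, 673 and 481 in sham and 571, 403 and 277 in MI, and the podoplanin gene Pdpn at 25, 10.8, 15.4 and 18 in sham and 14.9, 19.5 and 8.79 in MI. The groups overlapped for all 4, and none was called (adjusted p of 0.47 to 0.75). Ptprc, the CD45 gene that the sort selected against, was at 0.964, 0.362, 1.09 and 1.34 in sham and 1.10, 3.21 and 5.31 in MI (adjusted p = 0.23). It was low throughout, with MI 2 and MI 3 above every sham library. Thy1, the CD90 gene, was at 36.7 ± 15.4 (SD, n = 4) in sham and 28.7 ± 3.63 (n = 3) in MI.

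Genes of the collagen-rich matrix of a healing wound rose after MI. Of 32 tested genes of interstitial matrix proteins, 20 rose and none fell (with 16 libraries 8 rose and none fell), and the list's median change was 1.74 against 0.0078 for all genes. Tnc encodes tenascin C, a matrix protein of wounds and of developing tissue (chromosome 4, 63959785 to 64047015, mm10). It was at 7.60, 14.6, 7.40 and 9.20 in sham and 213, 162 and 474 in MI, and the 2 groups did not overlap. The change came to 4.62 ± 0.31 on the log2 scale (SE; adjusted p = 8.3e-08 from limma). Col12a1, which encodes a collagen that sits on the surface of collagen fibrils (chromosome 9, 79598991 to 79718831), was at 4.77, 3.70, 2.97 and 0.340 in sham and 40.2, 42.9 and 122 in MI. Its change was 4.13 ± 0.48 (adjusted p = 8.3e-05).

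The fibril-forming collagen I gene Col1a1 was at 58, 270.3, 147 and 112 in sham and 767, 1502 and 2049 in MI, with every MI library above every sham library (change 3.38 ± 0.51, adjusted p = 9.1e-04). Postn, the gene of periostin, which helps collagen fibrils to assemble, was at 53, 188, 88 and 64.4 in sham and 731, 531 and 1522 in MI (3.26 ± 0.40, adjusted p = 1.5e-04). In both genes sham 2 was the highest sham library. Fn1, fibronectin, the early scaffold on which collagen is laid down, was at 138, 168, 86 and 101 in sham and 482, 710.4 and 1346 in MI. Cthrc1, which encodes a secreted protein of activated collagen-producing cells, was at 0, 0, 0 and 0.0170 in sham and at 7.33, 13.7 and 28.8 in MI. Spp1, osteopontin, made by macrophages and other cells of injured tissue, was at 0.0896, 0, 0.561 and 0.272 in sham and 23.9, 27.3 and 31.8 in MI, the MI values lying close together. Each of these 7 genes was called in both fits, and each kept its call with 13 libraries without any 1 library. The list did not move as a block: the gene of decorin, Dcn, a small proteoglycan of resting connective tissue, overlapped between the groups, at 277, 1330.1, 758 and 586 in sham and 417, 812 and 609 in MI (adjusted p = 0.93). None of the 21 tested genes of the basement membrane, the sheet on which endothelium rests, was called by limma or by edgeR, with a median change of 0.15, 4 genes at an unadjusted p below 0.05 and 2 calls by DESeq2.

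The enzymes that make and cross-link collagen rose as well, 11 of 30 tested genes with none lower and a median change of 1.07 (with 16 libraries 2 rose). Lox encodes lysyl oxidase, which cross-links collagen and elastin. It was at 2.31, 8.90, 6.48 and 7.60 in sham and 118, 126 and 224 in MI, without overlap, and its change was 4.47 ± 0.35 (adjusted p = 5.1e-07). P4ha3, a catalytic subunit of the prolyl hydroxylase that makes the collagen helix stable, was at 1.12, 0.0259, 0.651 and 0 in sham and 17.9, 12.4 and 15.3 in MI (3.54 ± 0.42, adjusted p = 8.3e-05). Creb3l1, a transcription factor released from the endoplasmic reticulum that drives collagen genes, was at 6.99, 6.36, 5.41 and 5.34 in sham and 28.7, 52.5 and 47 in MI (2.60 ± 0.42, adjusted p = 0.00148). Timp1, an inhibitor of matrix metalloproteinases (chromosome X, 20870166 to 20874735), rose from 0.359, 1.16, 0.416 and 0.885 to 28.5, 20.9 and 36.8, a change of 4.12 ± 0.45 (adjusted p = 5.0e-05). Of 28 tested proteases and inhibitors 4 rose and 1 fell. Without MI 3, 11 matrix genes, 5 collagen-processing genes and 1 of the proteases and inhibitors were called higher.

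**Figure D1:**
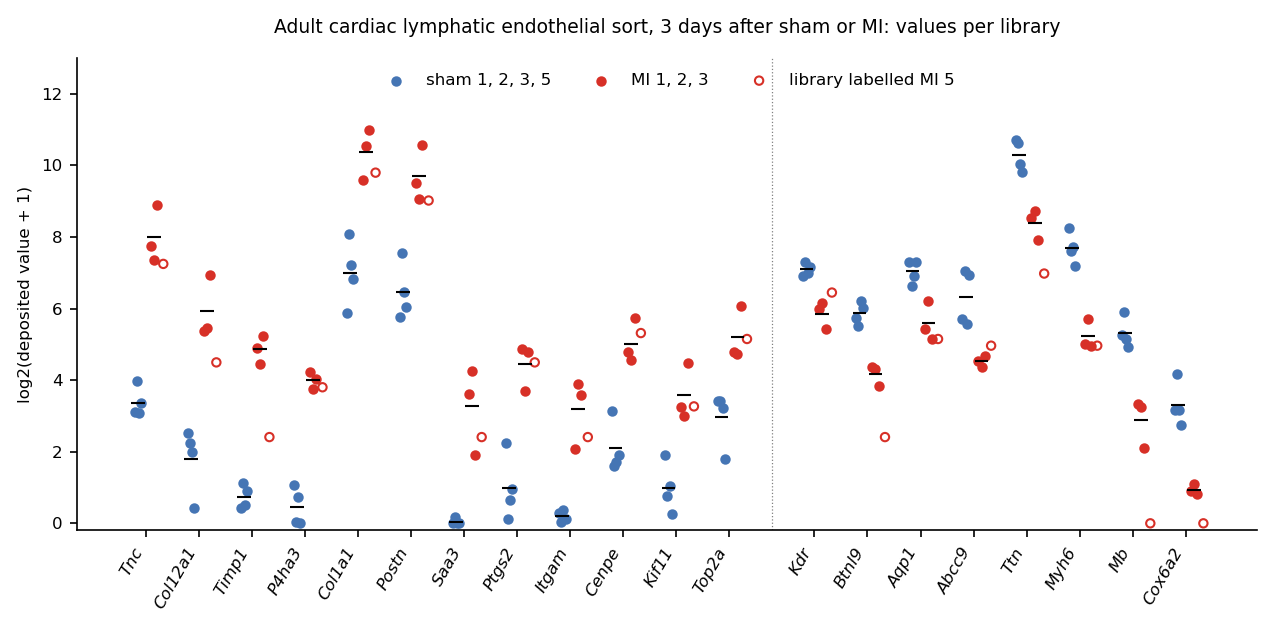
Level of 20 genes in each adult library as log2(deposited value + 1). Filled points are the 4 sham and 3 MI libraries of the 13-library fit, black lines their means, and open circles the library labelled MI 5, in which 1 read is worth 4.31. Left of the dotted line are genes called higher and right of it genes called lower, each with no overlap between the filled groups.

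Fibroblast markers were read in all of these libraries, and 4 of the 5 fibroblast markers that rose (Cthrc1, Col1a1, Postn and Col1a2) are genes of the matrix list too. Of 15 tested fibroblast markers 5 rose and none fell, with a median of 0.59. The summed level of the 15 was 762, 3594, 2039 and 1500.5 in sham and 2990.0, 4823 and 6508 in MI, so sham 2 lay above MI 1. Pdgfra, a receptor that defines cardiac fibroblasts, was at 30.5, 73.9, 76.9 and 44.8 in sham and 54, 101 and 93 in MI and was not called (adjusted p = 0.38). Markers of the mesothelium, which also makes matrix, had no call among 12 tested by limma or edgeR, 4 at an unadjusted p below 0.05 and 3 calls by DESeq2. The part of fibroblasts in the matrix result was not tested. In bulk libraries such as these, fewer cells of a type and less RNA per cell cannot be told apart, and the same holds for a rise.

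Genes of cell division formed the other large group. Of 42 tested genes of mitosis 27 rose and none fell, all 42 had a positive change, and their median change was 1.67. With 16 libraries 2 rose (Kif14 and Kif15), and without MI 3 in the 13-library fit 13 rose. Cenpe encodes a kinesin motor of the kinetochore, the site where chromosomes are pulled. It was at 7.87, 2.02, 2.28 and 2.77 in sham and 26.4, 22.7 and 51.9 in MI (2.93 ± 0.35, adjusted p = 8.3e-05). Anln, anillin of the cleavage furrow, was at 5.27, 4.76, 2.55 and 1.55 in sham and 27, 21 and 38.4 in MI (2.77 ± 0.32, adjusted p = 8.3e-05). Kif14, a kinesin needed for cells to part, was at 0.247, 0.0259, 0.796 and 0.0851 in sham and 4.39, 11.4 and 9.33 in MI, and Ccna2, cyclin A2, at 1.48, 0.440, 1.52 and 3.59 in sham and 11, 13.4 and 24.9 in MI. The sham library with the highest value differed from gene to gene, sham 1 for Cenpe and Anln, sham 3 for Kif14 and sham 5 for Ccna2. Mki67, the gene of the proliferation antigen Ki-67, was at 36.9, 57.4, 18.4 and 15.2 in sham and 119, 81.3 and 205 in MI, so that it was read in sham hearts as well (2.13 ± 0.36, adjusted p = 0.00209). The summed level of the mitosis list was 191, 259, 138 and 113 in sham and 528, 403 and 867 in MI, without overlap. With 16 libraries the change of Cenpe was 3.00 ± 0.66 (adjusted p = 0.0608) and that of Anln 2.16 ± 0.62 (adjusted p = 0.23).

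Of 34 tested DNA replication genes 5 rose and none fell, with a median of 0.63, and without MI 3 there were 2 calls. Uhrf1, which takes part in copying DNA methylation marks onto new strands, was at 0.784, 0.491, 0.0904 and 1.11 in sham and 4.51, 5.93 and 4.14 in MI (1.89 ± 0.35, adjusted p = 0.00393). Rrm2, the regulated subunit of the enzyme that makes deoxynucleotides, was at 0.448, 0.621, 0.597 and 0.357 in sham and 8.17, 2.20 and 4.51 in MI. The difference between the counts of the mitosis and replication lists was itself not tested. Pcna, the sliding clamp of DNA polymerases, was at 4.55, 6.96, 3.20 and 2.87 in sham and 5.68, 4.53 and 5.94 in MI and overlapped between the groups (adjusted p = 0.65). Npm1, nucleophosmin of the nucleolus, was the 1 called gene among 25 of ribosome biogenesis, at 33.1, 35.2, 29.95 and 20.3 in sham and 93.4, 88.2 and 89.6 in MI (1.61 ± 0.21, adjusted p = 2.6e-04). Of the 25 genes 23 had a positive change, with a median of 0.44. Their summed level was 252, 186, 227 and 208 in sham and 428, 318 and 384 in MI, without overlap.

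Many mitotic genes share promoter elements, the cell cycle genes homology region (CHR, TTTGAA), which binds MuvB complexes such as DREAM, and the CCAAT box, which binds NF-Y. The RefSeq promoter table for GRCm38.p6 spans 250 bases before to 50 after each start and held a window for 36 of the 42 mitosis genes in the expression table. On either strand, TTTGAA occurred in 28 of the 36 (77.8%), against 14.4% of the 8889 tested genes with a window and 4 of 28 DNA replication genes. CCAAT occurred in 26 of the 36 (72.2%) and in 42.8% of tested genes, but also in 19 of the 28 replication genes. Among the 25 mitosis genes that rose and had a window, 17 held TTTGAA and 18 held CCAAT. Across the 210 genes of any kind that rose and had a window, TTTGAA was in 22.9%. A match describes these letters only and does not show a bound site. The windows of 4 mitosis genes that rose are printed because each holds both elements, the CHR within 50 bases of the start. They are the 4 of these with the largest change, written 5′ to 3′ on the gene's strand, with TTTGAA and CCAAT or their reverse complements TTCAAA and ATTGG in capitals.
Kif11: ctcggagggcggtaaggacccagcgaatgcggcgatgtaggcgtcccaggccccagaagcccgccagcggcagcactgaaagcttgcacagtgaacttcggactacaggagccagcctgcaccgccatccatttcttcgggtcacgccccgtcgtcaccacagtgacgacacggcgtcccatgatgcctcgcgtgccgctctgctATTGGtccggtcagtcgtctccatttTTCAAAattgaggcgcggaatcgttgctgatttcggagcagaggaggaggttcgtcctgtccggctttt
Kif23: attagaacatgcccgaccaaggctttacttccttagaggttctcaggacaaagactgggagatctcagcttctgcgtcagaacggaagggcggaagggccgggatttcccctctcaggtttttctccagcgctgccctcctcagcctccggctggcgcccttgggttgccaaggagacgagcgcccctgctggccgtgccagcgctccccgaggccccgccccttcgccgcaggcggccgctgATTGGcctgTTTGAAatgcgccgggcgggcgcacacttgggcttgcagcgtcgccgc
Bub1b: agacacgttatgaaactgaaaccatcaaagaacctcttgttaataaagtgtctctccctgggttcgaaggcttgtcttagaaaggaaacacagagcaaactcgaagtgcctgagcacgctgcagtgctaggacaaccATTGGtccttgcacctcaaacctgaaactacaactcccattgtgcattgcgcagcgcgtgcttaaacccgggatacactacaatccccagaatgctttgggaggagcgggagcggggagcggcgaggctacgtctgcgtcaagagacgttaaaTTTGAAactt
Top2a: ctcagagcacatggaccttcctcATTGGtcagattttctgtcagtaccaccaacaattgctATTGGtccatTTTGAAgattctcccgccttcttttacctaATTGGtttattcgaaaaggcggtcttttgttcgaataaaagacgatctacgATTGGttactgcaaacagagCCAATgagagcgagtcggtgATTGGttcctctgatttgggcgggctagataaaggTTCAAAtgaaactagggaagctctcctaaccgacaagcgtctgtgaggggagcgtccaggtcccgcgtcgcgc

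The Kif11 window lies on the plus strand at chr19:37376132-37376431, and Kif11, the motor that pushes spindle poles apart, was at 2.76, 0.698, 1.07 and 0.187 in sham and 8.58, 6.92 and 21.4 in MI. Kif23, a kinesin of the midbody (minus strand, chr9:61946750-61947049), was at 2.22, 0.181, 0.669 and 0.697 in sham and 7.54, 6.27 and 13.8 in MI. Bub1b, a spindle checkpoint kinase (plus strand, chr2:118597961-118598260), was at 0.784, 0.0776, 1.90 and 0.851 in sham and 8.88, 5.84 and 8.35 in MI. All 3 were below a value of 3 in each sham library and above 5 in each MI library. Top2a, the topoisomerase that untangles chromosomes (minus strand, chr11:99024140-99024439), was at 9.64, 9.70, 8.41 and 2.45 in sham and 26.8, 25.7 and 66.1 in MI. Their changes were 2.59 ± 0.38, 2.42 ± 0.35, 2.26 ± 0.34 and 2.24 ± 0.36, with limma adjusted p of 6.7e-04, 5.8e-04, 8.7e-04 and 0.00144 in that order. Which of the cells in the sort carried these transcripts was not tested.

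**Figure D2:**
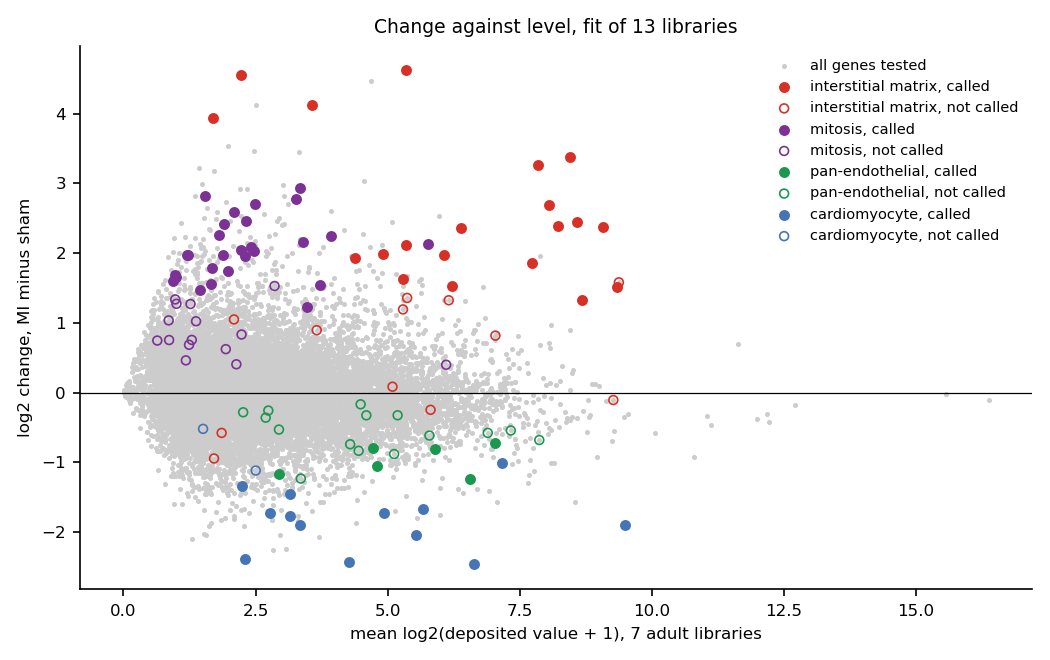
Log2 change between MI and sham (13-library fit) against the mean level over the 7 adult libraries for the 13033 genes tested, in grey. Members of 4 lists are coloured, filled where called, and the 42 mitosis genes all lie above 0 while the cardiomyocyte and pan-endothelial genes all lie below it.

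Inflammatory transcripts rose in part. Of 16 tested chemokine and cytokine genes 6 rose and 1, Il7, fell, with a median of 0.77 (with 16 libraries 1 rose, Ccl9). No gene of the list was called lower without any 1 library other than neonatal MI 5, MI 1 or sham 5. Cxcl1, which attracts neutrophils, was at 0.941, 0.414, 2.91 and 0.902 in sham and 18.5, 11.1 and 16.6 in MI (2.92 ± 0.42, adjusted p = 5.8e-04). Ccl2, which attracts monocytes, was at 2.67, 1.94, 3.08 and 2.79 in sham and 32.6, 19.8 and 10.1 in MI, highest in MI 1 (2.46 ± 0.42, adjusted p = 0.00246). Il6, the cytokine that drives the acute-phase response, was at 0.0896, 0, 0.0362 and 0.102 in sham and 4.19, 2.44 and 3.32 in MI. Of 19 acute-phase and oxidative stress genes 6 rose and none fell. Saa3, serum amyloid A3, was at 0, 0.129, 0 and 0 in sham and 11.3, 18.1 and 2.78 in MI, with 3 sham libraries at 0. Ptgs2, the inducible cyclooxygenase of prostaglandin synthesis, was at 3.70, 0.0776, 0.561 and 0.953 in sham and 28, 12 and 26.7 in MI (3.46 ± 0.47, adjusted p = 3.5e-04). The metallothionein gene Mt2 was at 0.291, 0.621, 0.326 and 0.136 in sham and 5.07, 4.89 and 2.85 in MI. With 16 libraries Cxcl1 had a change of 3.11 ± 0.67 (adjusted p = 0.0599) and Ptgs2 one of 3.48 ± 0.76 (adjusted p = 0.0608). Higher calls on these 2 lists fell to 4 each without MI 2 (chemokines) and without MI 1 or MI 3 (acute phase).

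Immediate early genes, which respond to growth factors and to stress within minutes, included 7 called higher and none lower of 26. Without MI 3 the count was 1. Egr2, a zinc finger transcription factor of this class, was at 0.426, 0.103, 0.705 and 0.289 in sham and 11.8, 1.32 and 14.5 in MI, and it lost its call without MI 3 (adjusted p = 0.071). Myc was at 3.99, 3.54, 3.17 and 3.28 in sham and 12.8, 9.38 and 15.7 in MI (1.58 ± 0.26, adjusted p = 0.00202). No call was made by limma among 23 interferon response genes (median -0.46), 14 Notch genes, 21 genes of the unfolded protein response, 18 of the citric acid cycle and 17 of the circadian clock. At an unadjusted p below 0.05 there were 6, 2, 2, 5 and 2 genes of these lists in that order. On the recovered reads edgeR called none of them, and DESeq2 called 1 interferon, 1 Notch and 2 citric acid cycle genes. Only 4 of the 23 interferon changes were positive. The interferon sum was 258, 346, 241 and 327 in sham and 179, 197 and 188 in MI. That of the citric acid cycle was 307, 294, 274 and 274 in sham and 243, 227 and 234 in MI. Neither overlapped between the groups, while the Notch, unfolded protein response and circadian clock sums did.

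Markers of macrophages and monocytes rose beside these genes. Of 10 tested markers 4 rose and none fell (with 16 libraries 2 rose, and without MI 2, MI 3 or sham 3 in the 13-library fit 2 rose), with a median of 1.59. On the recovered reads edgeR called 2 of the 10 and DESeq2 5. Itgam, the integrin CD11b, was at 0.224, 0.0259, 0.289 and 0.0851 in sham and 3.23, 13.9 and 11 in MI (2.99 ± 0.42, adjusted p = 4.5e-04). Cd68, a lysosomal protein of macrophages, was at 2.26, 0.0517, 0.561 and 0.187 in sham and 3.12, 8.17 and 6.17 in MI (limma adjusted p = 0.00552). Its call was lost with edgeR (adjusted p = 0.0512) and with the adult libraries alone. The other called markers, Ccr2 and Laptm5, were not called by edgeR (adjusted p = 0.285 and 0.128). DESeq2 called Laptm5 but not Ccr2. Laptm5 overlapped between the groups and lost its call without any 1 of 6 libraries. The summed level of the 13 markers in the table was 18.9, 27.6, 15.6 and 16.6 in sham and 28.6, 111 and 88.2 in MI. MI 1 was thus close to sham 2, while MI 2 and MI 3 were higher. The inflammatory genes differed in which MI library was highest. Cxcl1, Ccl2 and Ptgs2 were highest in MI 1 and Saa3 in MI 2, and the chemokine gene Ccl9, at 0, 0.854, 0.452 and 0 in sham and 3.51, 21 and 14.8 in MI, was lowest in MI 1. Csf1r, a defining macrophage receptor, was at 2.76, 3.65, 0.814 and 2.02 in sham and 2.66, 5.35 and 2.07 in MI and was not called. The filter asked for 4 libraries, so a gene that reached a value of 1 only in MI 1, 2 and 3 was not tested. Adgre1, also on this list, was such a gene, at 0.381, 0, 0.0904 and 0.374 in sham and 2.61, 2.85 and 1.99 in MI. With a filter of 3 libraries it entered the test only through these MI values, so no call is drawn from that filter. The part of macrophages in the inflammatory result was not tested. Other leukocytes could hardly be assessed. None of 10 neutrophil markers was among the genes listed, and of 12 markers of T, B and NK cells only 1 was, the T-cell gene Cd3e. It was at 0 in every sham library and below 1 in each of MI 1, 2 and 3. Cd3e was not called by limma but was called by edgeR and by DESeq2.

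Of 40 TGF-β and BMP signalling genes 5 rose and none fell, with a median of 0.24, and 3 rose without MI 3. Gdf6, a BMP ligand, was at 1.34, 0.155, 2.50 and 1.51 in sham and 19.7, 6.49 and 12.6 in MI. Ltbp2, a matrix protein related to the binders of latent TGF-β, was at 1.41, 2.59, 3.80 and 5.55 in sham and 18.6, 21.7 and 49.2 in MI, and lost its call without MI 3 (adjusted p = 0.0503). Runx1, a transcription factor of blood and of injured heart, was at 1.99, 1.47, 4.52 and 2.94 in sham and 15.9, 18.4 and 47 in MI and was called in both fits. Cd44, a receptor for hyaluronan, was at 1.46, 1.55, 4.32 and 5.68 in sham and 20.7, 24.8 and 27.4 in MI (2.70 ± 0.40, adjusted p = 8.0e-04). Acta2, smooth-muscle actin, a gene of myofibroblasts and of mural cells, was at 2.73, 1.97, 3.20 and 3.98 in sham and 12.3, 12.5 and 47.7 in MI and lost its call without MI 3 (adjusted p = 0.0653). MI 3 was the highest MI library for Ltbp2, Runx1, Cd44 and Acta2, and MI 1 for Gdf6.

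Among the growth factors of lymphatic vessels, Vegfd was at 3.94, 2.95, 2.89 and 1.75 in sham and 8.35, 9.72 and 9.89 in MI (1.44 ± 0.29, adjusted p = 0.00833). Every MI library lay above every sham library. The call was lost without MI 3 (adjusted p = 0.065) and with the adult libraries alone. With 16 libraries the change of Vegfd was 1.20 ± 0.81 (limma adjusted p = 0.79). Vegfc was at 4.84, 16.1, 6.55 and 4.59 in sham and 4.66, 7.52 and 7.39 in MI, with sham 2 the highest of all, and Vegfa at 10.3, 70.2, 16.9 and 19.1 in sham and 18.7, 25.3 and 16.5 in MI. Neither was called (adjusted p = 0.91 and 0.89). Kdr, VEGFR-2, the receptor for VEGF-A (chromosome 5, 75932827 to 75978458), fell from 119.8, 158, 126 and 142 to 62.1, 70.7 and 42.4, a change of -1.23 ± 0.23 (adjusted p = 0.0036). With 16 libraries its change was -1.09 ± 0.34 (adjusted p = 0.33). Flt1, VEGFR-1, was at 50.02, 68.8, 65 and 115 in sham and 25.9, 37.3 and 34.6 in MI, without overlap but not called (adjusted p = 0.0595). The angiopoietin receptor gene Tek was at 73.4, 85.2, 66.6 and 74.5 in sham and 45.9, 45.8 and 36.3 in MI and was called lower (adjusted p = 0.0304). It lost its call without MI 1 (adjusted p = 0.0531), without MI 2 (adjusted p = 0.0595), without MI 3 (adjusted p = 0.18), without sham 1 (adjusted p = 0.0516) and without sham 5 (adjusted p = 0.0611).

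Several genes shared by all endothelium fell. Of 21 tested pan-endothelial genes 6 fell and none rose, all 21 had a negative change, and the median was -0.68. Their summed level was 1364, 1296, 1289.7 and 1505 in sham and 1011, 893 and 637 in MI, without overlap. With 16 libraries none was called, and without MI 2, MI 3 or sham 5 in the 13-library fit 1 was. Pecam1, the CD31 gene of the sort, was at 164, 118, 131 and 151 in sham and 130.3, 105 and 59.9 in MI and was not called (adjusted p = 0.21). MI 3 was the lowest library for Kdr and Pecam1 and the highest for Col1a1, Postn and the mitosis sum. Of 17 tested lymphatic identity genes 16 had a negative change, with a median of -0.33, which ran from -0.72 without MI 1 to -0.063 without MI 3. Only Gata2, a transcription factor of lymphatic valves, was called among them, at 9.21, 23.6, 6.57 and 7.71 in sham and 3.10, 3.47 and 3.52 in MI (-1.38 ± 0.37, adjusted p = 0.0473). It lost that call without any 1 of 11 of the 13 libraries (adjusted p of 0.0538 to 0.153) and kept it without neonatal MI 5 or sham 3. Sox18, which acts before Prox1 in lymphatic development, was at 22.8, 23.9, 18.9 and 25.4 in sham and 7.94, 18 and 7.90 in MI and was not called (adjusted p = 0.075). Reln, reelin, secreted by lymphatic endothelium, was at 533, 414, 379.8 and 257 in sham and 262, 187 and 139.8 in MI (adjusted p = 0.0625).

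Markers of blood endothelium fell in 4 of 17 tested genes, with none higher and a median of -0.83. The count was 2 without neonatal MI 3, MI 1, MI 3 or sham 5. Btnl9, a butyrophilin-like gene of capillaries, was at 52.8, 44.7, 73 and 63.8 in sham and 19.7, 19 and 13.2 in MI (-1.70 ± 0.25, adjusted p = 6.9e-04). Aqp1, the water channel of capillaries, was at 158, 98.1, 119.9 and 157 in sham and 42.1, 73.6 and 34.3 in MI (-1.45 ± 0.25, adjusted p = 0.00293). The other 2, Cd36 and Fabp4, take up and carry fatty acids and belong to the fatty acid list as well, where 3 of 19 genes fell (none without MI 3). The summed level of the 17 blood endothelial markers was 682, 1035, 746 and 1131 in sham and 394, 546 and 278 in MI. Of 11 tested pericyte and smooth muscle markers 2 fell (Abcc9 and Rgs5), 1 rose (Acta2) and 8 were not called, with 5 of the 11 changes positive and a median of -0.43. Abcc9, a subunit of a potassium channel, was at 51.1, 132, 46.8 and 122 in sham and 22.2, 19.8 and 24.5 in MI (-1.79 ± 0.34, adjusted p = 0.00451). The part of other endothelial cells in the lower endothelial genes was not tested.

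**Figure D3:**
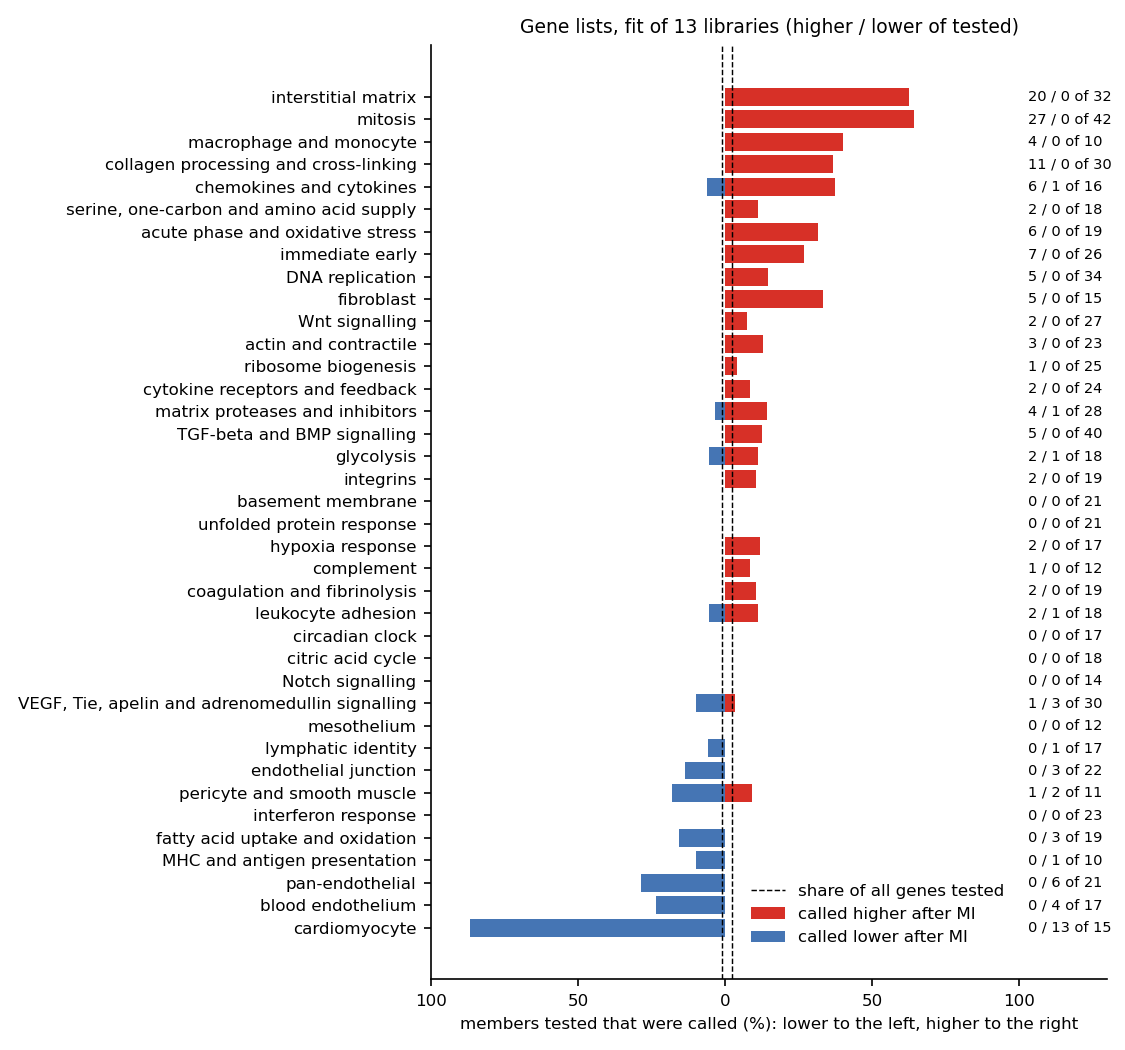
Share of tested members called higher (red, right) and lower (blue, left) after MI in each list with at least 10 tested members, 13-library fit, ordered by median change. Dashed lines mark the shares among all genes tested, 2.36% higher and 1.07% lower. The interstitial matrix and mitosis lists (20 of 32 and 27 of 42) and the cardiomyocyte markers (13 of 15) stand farthest from these lines.

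Transcripts of heart muscle cells fell. Of 15 tested cardiomyocyte markers 13 fell and none rose, with a median of -1.73 (2 with 16 libraries, and 5 without MI 3). Myh6, the main myosin heavy chain of the adult mouse heart (chromosome 14, 54941981 to 54966927), was at 303, 194, 210.2 and 146 in sham and 31.5, 51.4 and 30.2 in MI (-2.46 ± 0.38, adjusted p = 0.00115). With 16 libraries its change was -2.53 ± 0.69 (adjusted p = 0.18). Ttn, the giant spring protein titin, was at 1668, 1583, 1057 and 897 in sham and 370.2, 423 and 243 in MI, and Mb, myoglobin, at 37.4, 58.4, 34.8 and 29.5 in sham and 9.03, 8.45 and 3.27 in MI. Cox6a2, a subunit of cytochrome oxidase of heart and skeletal muscle, was at 8.05, 17.1, 7.92 and 5.77 in sham and 0.882, 1.12 and 0.749 in MI. It was the 1 lower gene that kept its call in both fits without any 1 library. The summed level of the 16 markers in the table was 2551, 2509.7, 1729.8 and 1472 in sham and 591, 699 and 423 in MI. The antibodies of the sort do not mark cardiomyocytes, and how their transcripts entered the sorted samples was not tested. The 12 genes with the largest fall that were named by rule include the muscle genes Cmya5 (39.8, 51.5, 36.2 and 21.6 in sham and 7.76, 15 and 6.30 in MI) and Tnni3, cardiac troponin I (18.2, 28, 10.6 and 14.8 in sham and 2.90, 4.79 and 3.88 in MI). Dsp, desmoplakin, which anchors filaments at desmosomes, was at 34.9, 27.5, 18.6 and 15.5 in sham and 6.64, 3.77 and 4.09 in MI, and it is made by heart muscle as well as by lymphatic endothelium.

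The isoforms of lactate dehydrogenase moved in opposite directions. Ldha, whose product favours lactate formation and which responds to hypoxia, was at 17.4, 10.5, 20.2 and 24.1 in sham and 50.8, 53.8 and 50.6 in MI (1.52 ± 0.28, adjusted p = 0.00363). Ldhb, the isoform of oxidative tissue such as heart muscle, was at 8.96, 6.23, 6.89 and 4.08 in sham and 0.745, 1.06 and 1.56 in MI (-1.81 ± 0.32, adjusted p = 0.00332). With 13 libraries neither pair of groups overlapped, and both calls were kept without any 1 library of the 13. With 16 libraries the change of Ldha was 1.14 ± 0.65 (adjusted p = 0.73), and the library labelled MI 5, at 17.3, lay within its sham range. The glucose transporter Slc2a1 was at 2.58 ± 1.31 in sham (SD, n = 4) and 8.29 ± 2.70 in MI (n = 3) and was called higher, the other of 2 higher genes among 18 of glycolysis. Its call was lost without neonatal MI 1 (adjusted p = 0.0548), without neonatal MI 3 (adjusted p = 0.0501), without MI 1 (adjusted p = 0.13), without MI 2 (adjusted p = 0.13), without MI 3 (adjusted p = 0.0529) and without sham 1 (adjusted p = 0.0586).

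**Figure D4:**
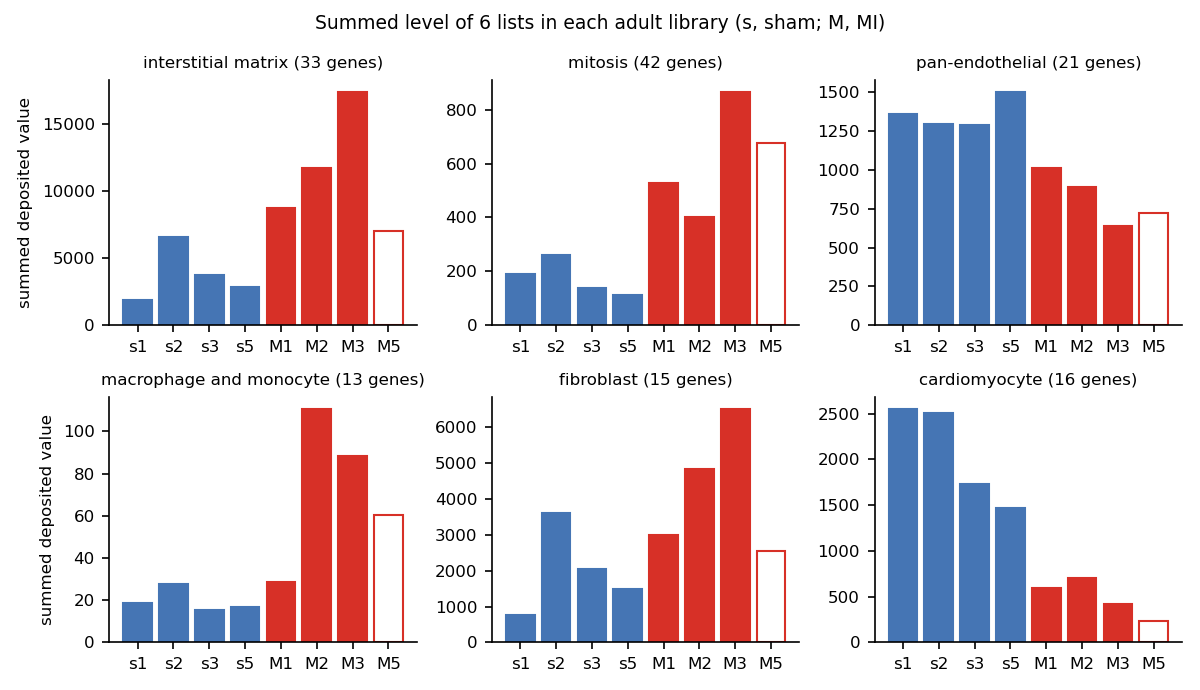
Summed deposited value of 6 lists in each adult library, sham in blue, MI in red and the library labelled MI 5 open. The matrix, mitosis, pan-endothelial and cardiomyocyte sums of MI 1, 2 and 3 do not overlap with sham, the fibroblast sums do, and the macrophage sum of MI 1 (28.6) lies next to that of sham 2 (27.6).

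The library labelled MI 5 took no part in the 13-library fit, and its own values were set beside the calls. Of 158 genes called higher whose MI mean was at least 12.9, the value of 3 reads in that library, it lay above every sham library in 112 (70.9%), against 476 of 3307 of all genes at that level (14.4%). The calls used the same sham libraries, so genes called higher have low sham values by selection. A single read in the library labelled MI 5 is worth 4.31. The called share and the share of all genes therefore differ in part by construction, and no conclusion is drawn from them. The same holds below for genes called lower, whose sham values are high by selection. The levels of Xist, Igf2 and H19 in this library also stand beside the count of 112. In 9 of the 158 genes the mean of 6 neonatal libraries was at or below the adult sham mean, and among these the library lay above every sham library in 4 (58 of 1709 of all such genes, 3.39%). Of 81 genes called lower it lay below every sham library in 75 (92.6%), against 2011 of 3411 of all genes (59.0%). In only 3 of the 81 was the mean of the 6 neonatal libraries at or above the adult sham mean. The library lay below every sham library in these 3 (498 of 1351 of all such genes, 36.9%). For the rest of the 81, a low value there cannot be told apart from a neonatal-like level.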

How the data were processed

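RNA of the sorted cells was made into libraries with the Ovation RNA-Seq V2 kit and sequenced as single reads, per the labels' protocols. The submitters' processing notes name Trimmomatic, STAR, HTSeq, edgeR and the genome builds mm10 and GRCm38. Values deposited by the authors, taken here as signal, carry the name CPM but do not have equal column sums. Dividing a library by its own constant returned whole reads to within 0.01 read. The design had assumed values of this kind without counts, and the whole reads recovered (100% of values) served for depth and for the edgeR and DESeq2 alternatives.

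A gene was tested where 4 or more libraries of a fit reached a value of 1. Values were transformed as log2(value + 1) and fitted with limma-trend (limma 3.58.1, R 4.3.3) on the 4 groups of the series, contrast adult MI minus adult sham. The 4 groups share 1 estimate of the spread. The number 5 in a column name matches no label number, so such a column was placed in its group by name. The members, the 44 gene lists (918 symbols, 829 in the table) and the rule for named genes were chosen with earlier results of these data known. Named by rule were the 12 genes with the largest change in each direction (mean of at least 5, no overlap, no predicted genes), up to 4 called members of each list with at least 3, genes called with 16 libraries, and 8 genes of the sort and lineage. Another 16 genes were named after their values were seen, and some genes named by the rule are not described. The test was checked on simulated data. Alternatives were other scaling, pseudocounts, filters, library weights, adult libraries alone, edgeR 4.0.16, DESeq2 1.42.0, leaving out single libraries, and a block for the column number. Promoter sequences are from RefSeq (GRCm38.p6), with those of chromosome 18 not used here.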

Additional observations from a re-analysis of the deposited data

Results flagged for a closer look

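Among 156 groups of 4 adult libraries examined, counted over 72 genes and 6 measures of library quality, 18 held a library whose gap to the nearest other library exceeded Dixon's 95% critical share of the group's range. Chance alone gives about 1 such group in 20. The library labelled MI 5 was far from the other MI libraries in reads (38575819), in genes with a read (7746) and in the share of Uqcrc1 (99.8%). It was also the distant value for Gata2 (17.3) and Ldha (17.3), each a value of 4 reads. Sham 2 had the most reads in its group (20914864) and a read on the fewest genes (14121), and was the high value for Gata2 (23.6), Vegfa (70.2) and Vegfc (16.1) and the only sham library with a read on Saa3 (0.129). Sham 1 stood apart in reads outside Uqcrc1 and mitochondrial ribosomal RNA (10019029) and was the high value for Cenpe (7.87) and Thy1 (59.6). Sham 5 alone had a read on Cthrc1 (0.0170). In the MI group MI 3 was the high value for Kif11 (21.4) and Runx1 (47.0), and MI 2 for Myh6 (51.4). No value of the list sums in MI 1, 2 and 3 was tested in this way, since groups of 3 are too small.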

How the results depend on the processing

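The 23 calls with all 16 libraries became 122 with quantile normalization (90 higher, 32 lower), 10 with a pseudocount of 0.25 (10 higher, 0 lower), 42 with a pseudocount of 4 (27 and 15), 12 with a value of at least 5 in 4 libraries, 94 with the adult libraries alone (74 and 20), 899 with weights per library (558 and 341), 39 with edgeR (38 and 1) and 175 with DESeq2 (162 and 13). Leaving out 1 library gave 6 (without sham 5) to 110 calls (without neonatal sham 1). The 446 calls with 13 libraries became 153 with the adult libraries alone (115 and 38), 768 with weights (511 and 257) and 866 with DESeq2 (532 and 334), and 143 to 645 without 1 library. With edgeR they were 341, of which 79.2% were higher, against 68.8% of the 446. The cause of these shifts was not tested. Quantile normalization, both pseudocounts and the filters gave 391 to 516. Of 83 genes named by rule and called with 13 libraries, 50 kept their call without any 1 library and 54 under every other alternative. With 16 libraries 6 and 10 of 23 did. No called gene changed sign. Of genes not called, the change of Dcn, Vegfa and Vegfc turned positive with weights, at 0.10, 0.19 and 0.21 with 16 libraries and 0.14, 0.22 and 0.23 with 13, and that of Pdpn was 0.012 with quantile normalization (16 libraries). Without 1 library, Pdpn ran from -0.29 to 0.14, Vegfa from -0.65 to 0.24 and Vegfc from -0.42 to 0.12 with 16 libraries. With 13, Pdpn ran from -0.50 to 0.038, Lyve1 from -0.67 to 0.26, Dcn from -0.50 to 0.25, Vegfa from -0.50 to 0.38 and Vegfc from -0.30 to 0.24. Deviations of same-numbered MI and sham libraries correlated with r of 0.135, 0.0400 and 0.0677 (13 libraries), so the numbers were not taken as pairs, and with the number as a replicate block there were 17 and 331 calls, 17 of them among the 23 and 308 among the 446. MI 3 correlated better with sham 5 (0.0914) than with its own number. A call against a sham value near 0 rests on few reads there, over 4 libraries 1 for Cthrc1, 5 for Saa3, 12 for Il6 and 51 for Spp1.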

Other observations

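A further group was noticed after the values were seen and described with a list written then, 48 genes of protein entry into the endoplasmic reticulum, glycosylation and transport to the Golgi, the route that secreted collagen takes. With 13 libraries 10 rose and none fell, 41 had a positive change and the median was 0.51, while with 16 libraries none was called and the median was 0.22. The 10 include Ssr3 of the translocon, Stt3a and Ostc of the oligosaccharyltransferase, and Sec23a, Sec24d and Copb2 of transport vesicle coats. None of 21 genes of the unfolded protein response was called in the same fit.

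The noncoding genes Meg3, Rian and Mirg, imprinted neighbours in 1 domain of chromosome 12, were each called higher and were likewise chosen after their values were seen. Meg3 was at 8.52, 21.3, 25.4 and 17.6 in sham and 45.4, 49.999 and 84.3 in MI (limma adjusted p = 0.011), Rian at 7.58, 17.8, 17.5 and 14.2 in sham and 30.3, 70.1 and 62 in MI (0.00209), and Mirg at 0.202, 0.0259, 1.99 and 1.58 in sham and 4.58, 6.14 and 6.09 in MI (0.012). Every MI library lay above every sham library in all 3.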
